A study of Arabidopsis thaliana with 18 samples.

Results

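Regulators of the uninucleate microspore and of its division were followed in microspores and pollen nuclei of Arabidopsis thaliana, ecotype Col-0. The genes were MYB81 (AT2G26960), LBD27, also called SIDECAR POLLEN (AT3G47870), LBD10 (AT2G23660), BZIP34 (AT2G42380), BZIP18 (AT2G40620), MOR1, also called GEMINI POLLEN 1 (AT2G35630), and DUO3 (AT1G64570). They were chosen by AGI locus for their known roles, and all 7 had a row among the 28424 entries of the pollen gene table and the 24292 entries of the microspore gene table. The 18 RNA-seq libraries formed 6 groups of 3. Sorted vegetative cell nuclei (V-Mt VC) and sperm cell nuclei (V-Mt SC) of mature pollen came from a line with pLat52:REF6-GFP and an RFP-tagged sperm histone under the HTR10 promoter, which the labels write as HTR10 in the first V-Mt pollen library and number upwards to HTR15 in the others. V-Mt late microspores (V-Mt LMS) came from the same line. WT vegetative nuclei (WT VC) and WT sperm nuclei (WT SC) came from pACTIN11:H2B-GFP; pHTR10:HTR10-RFP plants, and WT late microspores (WT LMS) from pHTR10:HTR10-RFP plants. REF6 removes methyl groups from lysine 27 of histone H3, and the LAT52 promoter that drives it is a pollen promoter active mainly in the vegetative cell. The green label that gated vegetative nuclei therefore differed between V-Mt (REF6-GFP) and WT (H2B-GFP), and this difference cannot be told apart from the effect of REF6. Microspores, about 100000 per sample, were sorted on their own green fluorescence, and grains with RFP were kept out. Messenger RNA was taken from the sorted nuclei and total RNA from the microspores.

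The microspore is the haploid product of male meiosis, and its strongly asymmetric division gives a large vegetative cell and a small generative cell, which divides again into the sperm cells. MYB81 is a MYB factor of the GAMYB-like group and promotes entry into the first pollen mitosis. LBD27 and LBD10 are LATERAL ORGAN BOUNDARIES DOMAIN factors: LBD27 is needed for the polarity of the microspore division, and LBD10 acts with it in pollen development. BZIP34 and BZIP18 are basic leucine zipper factors that can pair with each other and act in pollen wall formation and pollen germination. MOR1 is a large microtubule-binding protein, and its gemini pollen alleles disturb the placing of the new cell wall after the microspore division. DUO3 is a nuclear protein needed for the division of the generative cell and for sperm gene expression.

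GAMYB-like genes share a site for miR159 in their coding sequence, and MYB81 carries one. The site is shown for MYB81 and for the 3 listed relatives with a site that passed the filter in pollen (MYB33, MYB101 and MYB120). MYB65, MYB97 and MYB104 also carry one but did not pass it. Mature miR159a (chr1:27713234-27713254, minus strand) is printed with its seed, bases 2 to 8, in capitals, and the sites are printed with the bases that can pair with miR159a by Watson-Crick rules in capitals. The MYB81 site at chr2:11506466-11506486 (minus strand) pairs at 17 of 21 bases, the MYB33 site at chr5:1839579-1839599 (plus strand) at 18, the MYB101 site at chr2:13783168-13783188 (minus strand) at 19 and the MYB120 site at chr5:22324982-22325002 (minus strand) at 17. All coordinates and sequences are from RefSeq, TAIR10.1. A match is a description of the letters, and miR159 itself was not measured in these libraries.
miR159a: tTTGGATTgaagggagctcta
MYB81: TcGAGtTCCCTTCAtTCCAAt
MYB33: TgGAGCTCCCTTCAtTCCAAt
MYB101: TAGAGCTtCCTTCAAaCCAAA
MYB120: agcAGCTCCCTTCAAaCCAAA

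LBD10 and BZIP34 followed each other most closely of the 7 genes, and the 250 bases before the annotated start of each are shown for that reason. Both windows hold the G-box CACGTG, printed in capitals, which reads the same on both strands. The LBD10 window is chr2:10061823-10062072 and the BZIP34 window chr2:17649063-17649312, both on the minus strand. The window of MOR1 also holds a G-box, and 6.49% of 27443 windows of this length across the genome hold one.
LBD10: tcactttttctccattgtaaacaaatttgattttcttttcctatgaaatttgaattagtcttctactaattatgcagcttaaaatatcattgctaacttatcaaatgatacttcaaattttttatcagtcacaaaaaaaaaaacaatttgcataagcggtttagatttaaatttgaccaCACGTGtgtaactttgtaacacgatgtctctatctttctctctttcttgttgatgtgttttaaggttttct
BZIP34: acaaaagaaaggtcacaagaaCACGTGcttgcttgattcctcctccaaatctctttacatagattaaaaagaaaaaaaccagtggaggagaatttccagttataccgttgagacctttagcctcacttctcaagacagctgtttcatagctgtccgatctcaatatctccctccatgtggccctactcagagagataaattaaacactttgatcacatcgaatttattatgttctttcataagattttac

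The published REF6 zinc finger motif (CTCTGTTT, CTCTGTTC, CTCTGCTT or CTCTGCTC, either strand) is in none of the 7 windows, and 5.77% of all windows hold it. Within the genes, from annotated start to end, it occurs 0 times in MYB81 (chr2:11506065-11507426), 0 times in LBD27 (chr3:17659680-17661354), once each in LBD10 (chr2:10060065-10061822), BZIP34 (chr2:17646857-17649062) and BZIP18 (chr2:16954418-16957183), 2 times in MOR1 (chr2:14966574-14980761) and 3 times in DUO3 (chr1:23978613-23983925). Of all genes 54.8% hold at least 1 such match, so its presence does not set these genes apart. The GAMYB word TAACAA, on either strand, is in the windows of LBD27 and MOR1 and in 30.8% of all windows.

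Levels are FPKM as deposited, that is fragments per kilobase of model, scaled to library size. Fold changes come from limma on log2(FPKM + 1), with p-values adjusted over all 19733 genes tested in the pollen table or 18002 in the microspore table. Whether replicates are separate plants is not stated in the labels, so the p-values rest on the spread between libraries, part of which may be technical. The files hold no read counts. Steps between low values put the depth at 9500000 to 24200000 fragments for a pollen library, and at 2000000 to 3300000 for a microspore library, so that 1 fragment on 1 kb is worth 0.0413 to 0.105 FPKM in pollen and 0.306 to 0.505 FPKM in microspores. REF6 (AT3G48430) averaged 2184 ± 851 FPKM in V-Mt VC against 0.667 ± 0.376 FPKM in WT VC (SD, n = 3 each; limma log2 fold change 10.3, adjusted p = 8.29e-07). It averaged 175 ± 227 FPKM in V-Mt SC against 19.5 ± 7.6 FPKM in WT SC (limma adjusted p = 0.131). In microspores it averaged 947 ± 382 FPKM in V-Mt LMS against 104 ± 23.9 FPKM in WT LMS, a log2 fold change of 3.11 (limma adjusted p = 0.193). The transgene and the native gene cannot be told apart in these values.

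In vegetative nuclei the 7 genes split by direction. MYB81 and LBD27 were higher in V-Mt VC, LBD10, BZIP34, BZIP18 and MOR1 were lower, and DUO3 did not pass the test. In that comparison limma called 73.3% of all genes tested, with 62.5% higher and 10.8% lower in V-Mt VC, and the median gene stood 1.92 higher on the log2 scale. The 4 falls therefore ran against the bulk of the transcriptome, whereas a rise was the common case. Median-ratio scaling between libraries put the all-gene median at 1.46 and quantile normalization at -0.03. Fold changes below are given as deposited, and another scaling is named where it turns a direction or a call. Each library holds many nuclei, so more nuclei that carry a transcript and more transcript per nucleus cannot be told apart.

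MYB81 RNA was present in V-Mt vegetative nuclei and at or near 0 in WT vegetative nuclei. Its 3 V-Mt VC libraries had 34.35, 31.78 and 30.11 FPKM, against 0, 0 and 0.02 FPKM in WT VC. The groups were far apart, and the V-Mt VC libraries lay within a narrow range. On the log2(FPKM + 1) scale MYB81 was higher in V-Mt VC by 5.04 (SE 0.65, limma adjusted p = 4.05e-05), which depends on the added 1 because WT VC is at 0 or within 1 fragment of it. In sperm nuclei MYB81 had 0, 1.33 and 8.97 FPKM in V-Mt SC, against 0, 0.38 and 0.36 FPKM in WT SC. Those groups overlapped, and V-Mt SC replicate 3 carried most of the V-Mt SC signal. That library was also the highest of its group in REF6 (28.87, 58.4 and 436.38 FPKM). Among vegetative markers it was the highest in VGD1 (243.24, 307.54 and 1083.53 FPKM), PPME1 and BUPS1. It was not the highest in ANX1 (13.18, 7.71 and 10.03 FPKM) and was the lowest in PRK6 (10.37, 19.57 and 5.09 FPKM). The part of REF6 and of these markers in the MYB81 value was not tested. The MYB81 estimate of 1.21 (SE 0.65) missed the threshold (limma adjusted p = 0.302). Within the V-Mt line MYB81 was lower in SC than in VC by 3.53 (SE 0.65, limma adjusted p = 0.000592). MYB81 passed the filter only with the V-Mt VC libraries, so that call adds nothing to the levels. Among pollen nuclei V-Mt VC stood first, and V-Mt SC, WT SC and WT VC below it did not separate beyond their spread.

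LBD27 showed the same split at a much lower level. Its V-Mt VC libraries had 1.85, 1.68 and 4.75 FPKM, against 0, 0.21 and 0.08 FPKM in WT VC. It was listed at 0 in all 3 V-Mt SC and all 3 WT SC libraries. The V-Mt VC values did not overlap with any other pollen group, and replicate 3 was the highest. LBD27 was higher in V-Mt VC than in WT VC by 1.69 (SE 0.24, limma adjusted p = 8.02e-05), which is less than the median gene of that comparison, and after quantile normalization the estimate was -0.23 (adjusted p = 0.596). LBD27 entered the test only through the V-Mt VC libraries, and it dropped below the filter when any 1 of them was left out. MYB81 also entered through V-Mt libraries alone, those of V-Mt VC and V-Mt SC, but it was tested under all 19 alternatives. In V-Mt VC against WT VC a call for either gene could thus only be a rise, and neither adds to a count of rising genes.

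Markers of other cell types moved alongside these rises. The summed level of the 11 tapetum markers was 54.5 to 61.5 FPKM in V-Mt VC against 12.4 to 20.4 FPKM in WT VC. Of the 8 tested 6 rose and 2 fell, beside 62.5% higher and 10.8% lower over all genes. MS2, LAP6, A9, CYP703A2 and CYP704B1 entered the test only with the V-Mt VC libraries. None of them adds to the 6, which leaves AMS. Of the 11, ACOS5, MS1 and A9 were at 0 in every WT VC library, and MS1 was near 0 in V-Mt VC too (0.1, 0 and 0.03 FPKM). The 2 that fell were DYT1 and TDF1, with means of 0.22 and 1.2 FPKM in V-Mt VC against 4.54 and 4.02 FPKM in WT VC. Both entered the test only with the WT VC libraries, so neither adds to the 2. LAP5, which was not tested, had a lower mean in V-Mt VC as well (0.0767 against 2.19 FPKM). The summed level of the 2 microspore markers COPT3 and MSP2 was 3.39 to 5.18 FPKM in V-Mt VC, with both at 0 in WT VC. In sperm nuclei COPT3 was at 0 throughout, and the sum was 0 to 0.47 FPKM in V-Mt SC against 0 to 12.1 FPKM in WT SC, so MSP2 was not limited to V-Mt VC. The same markers summed to 261 to 324 FPKM (tapetum, 9 in the table) and 534 to 756 FPKM (microspore) in V-Mt LMS. The 5 sperm markers summed to 3134 to 3446 FPKM in V-Mt VC against 137 to 174 FPKM in WT VC, nearly all of it DAN1. Of the 5, 3 were called higher (DAN1, DUO1 and GCS1), near the 62.5% of all genes. GEX2 was called lower and DAZ1 did not pass. The part of all these markers in the levels of MYB81 and LBD27 was not tested. The sperm markers summed to 13771 to 15682 FPKM in V-Mt SC and 10919 to 13106 FPKM in WT SC, and LBD27 was at 0 in all of these libraries.

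Markers of the vegetative cell itself were lower in V-Mt VC, beside the falls that follow. The 5 vegetative markers, pollen genes for cell wall enzymes and receptor kinases of the pollen tube, summed to 981 to 1062 FPKM in V-Mt VC against 3231 to 3435 FPKM in WT VC. Of these, 4 fell while VGD1 did not pass, and 10.8% of all genes were lower there. In sperm nuclei the vegetative markers summed to 481 to 1501 FPKM in V-Mt SC against 830 to 1254 FPKM in WT SC. BUPS1 alone was called, as lower, where 3.93% of all genes were lower. The part of the vegetative markers in the falls of LBD10, BZIP34, BZIP18 and MOR1 was not tested.

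LBD10 was the most abundant of the 7 genes in WT vegetative nuclei and much lower in V-Mt VC. Its libraries had 60.37, 68.77 and 43.4 FPKM in V-Mt VC, against 317.73, 416.52 and 415.46 FPKM in WT VC. No V-Mt VC library came near a WT VC library. LBD10 fell by 2.73 in V-Mt VC (SE 0.62, limma adjusted p = 0.00232). In sperm nuclei it had 58.85, 74.63 and 15.23 FPKM in V-Mt SC, against 54.97, 21.12 and 99.28 FPKM in WT SC. These overlapped fully, and the difference of -0.25 (SE 0.62, interval -1.63 to 1.13, limma adjusted p = 0.895) turned to 0.25 after median-ratio scaling and to 0.10 after quantile normalization. WT SC was lower than WT VC by 2.93 on the log2 scale (limma adjusted p = 0.00335), while V-Mt SC and V-Mt VC overlapped at -0.46 (adjusted p = 0.527), an estimate that turned to 0.01 and 0.44 after the same scalings. WT VC thus stood alone at the top, and the other 3 pollen groups did not differ beyond their spread.

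BZIP34, like LBD10, was high in WT VC and much lower in V-Mt VC. It had 9.05, 8.81 and 9.38 FPKM in V-Mt VC, against 86.96, 125.13 and 115.52 FPKM in WT VC. The V-Mt VC libraries lay within 1 FPKM of each other and far below every WT VC library. BZIP34 fell by 3.43 in V-Mt VC (SE 0.68, limma adjusted p = 0.000909), the largest fall among the 7 genes. In sperm nuclei the values scattered, with 22.49, 14.94 and 2.65 FPKM in V-Mt SC against 8.5, 5.23 and 25.55 FPKM in WT SC. The sperm difference was -0.07 (SE 0.68, interval -1.57 to 1.44, limma adjusted p = 1) and turned to 0.37 and 0.54 after median-ratio scaling and quantile normalization. Between WT nuclei BZIP34 was lower in SC than in VC by 3.23 (SE 0.68, limma adjusted p = 0.00318). Within the V-Mt line the difference was 0.14 (limma adjusted p = 0.862), but after quantile normalization BZIP34 was higher in V-Mt SC than in V-Mt VC by 1.93 (adjusted p = 0.019), while LBD10 at 0.44 did not pass. Over the 12 pollen libraries log2(FPKM + 1) of LBD10 and BZIP34 had a Pearson r of 0.97, a description of libraries that fall into 4 groups, and the next pair, MYB81 and LBD27, had 0.84.

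BZIP18, which can dimerize with BZIP34, fell in V-Mt VC too and had uneven values in sperm nuclei. In vegetative nuclei it had 20.9, 31.7 and 27.85 FPKM in V-Mt VC, against 146.11, 128.86 and 143.08 FPKM in WT VC, with no overlap. It fell by 2.35 there (SE 0.60, limma adjusted p = 0.00451). In sperm nuclei it had 12.2, 13.85 and 46.94 FPKM in V-Mt SC, against 99.21, 201.89 and 38.81 FPKM in WT SC. Replicate 3 of each line broke the separation, since V-Mt SC replicate 3 lay above WT SC replicate 3. The sperm difference of -2.14 (SE 0.60, interval -3.47 to -0.81) missed the threshold (limma adjusted p = 0.0681), and it passed without V-Mt SC replicate 3 (-2.73, adjusted p = 0.0298) or without WT SC replicate 3 (-2.76, adjusted p = 0.00853). WT SC and WT VC overlapped at -0.59 (SE 0.60, limma adjusted p = 0.5), which became -1.72 (adjusted p = 0.0224) after median-ratio scaling and 0.02 without WT SC replicate 3. V-Mt SC and V-Mt VC overlapped as well, at -0.38 (limma adjusted p = 0.586), which turned to 0.08 and 0.91 under median-ratio scaling and quantile normalization.

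MOR1 was lower in the V-Mt line in both kinds of nuclei. It had 68.25, 64.26 and 57.74 FPKM in V-Mt VC, against 109.77, 151 and 157.05 FPKM in WT VC. It had 24.28, 20.78 and 14.03 FPKM in V-Mt SC, against 91.3, 73.82 and 43.41 FPKM in WT SC. Neither pair of groups overlapped, although WT SC replicate 3 was less than the other WT SC libraries. MOR1 fell by 1.11 in V-Mt VC (SE 0.31, limma adjusted p = 0.00823) and by 1.74 in V-Mt SC (SE 0.31, limma adjusted p = 0.018). It was the single gene of the 7 that passed in sperm nuclei, where 5.11% of all genes passed (1.18% higher and 3.93% lower in V-Mt SC), and in a fit of the sperm libraries alone it did not pass (adjusted p = 0.177). Sperm nuclei were below vegetative nuclei in both lines, by 1.67 in V-Mt (SE 0.31, limma adjusted p = 0.00067) and by 1.04 in WT (SE 0.31, limma adjusted p = 0.0218). The WT difference did not pass without WT SC replicate 3 (-0.74, adjusted p = 0.0632), WT VC replicate 2 (-0.97, 0.0742) or WT VC replicate 3 (-0.94, 0.0812). The level of MOR1 was thus highest in WT VC, with WT SC and V-Mt VC overlapping below it and V-Mt SC lowest.

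DUO3 had a similar level in all 4 pollen groups. Its libraries had 27.64, 32.68 and 25 FPKM in V-Mt VC, against 35.2, 22.76 and 25.57 FPKM in WT VC. They had 33.6, 38.65 and 13.78 FPKM in V-Mt SC, against 59.84, 24.02 and 30.66 FPKM in WT SC. All 4 groups overlapped, and no order among them exceeded their spread. The vegetative difference was 0.04 (SE 0.43, interval -0.92 to 1.01, limma adjusted p = 0.934), but -1.02 (adjusted p = 0.0489) after median-ratio scaling and -1.62 (adjusted p = 0.00596) after quantile normalization. The sperm difference was -0.42 (SE 0.43, interval -1.38 to 0.54, limma adjusted p = 0.612), and it turned to 0.09 after median-ratio scaling. Sperm minus vegetative nuclei gave -0.10 in V-Mt (adjusted p = 0.841) and 0.36 in WT (adjusted p = 0.585), and both turned sign after either scaling.

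**Figure D1:**
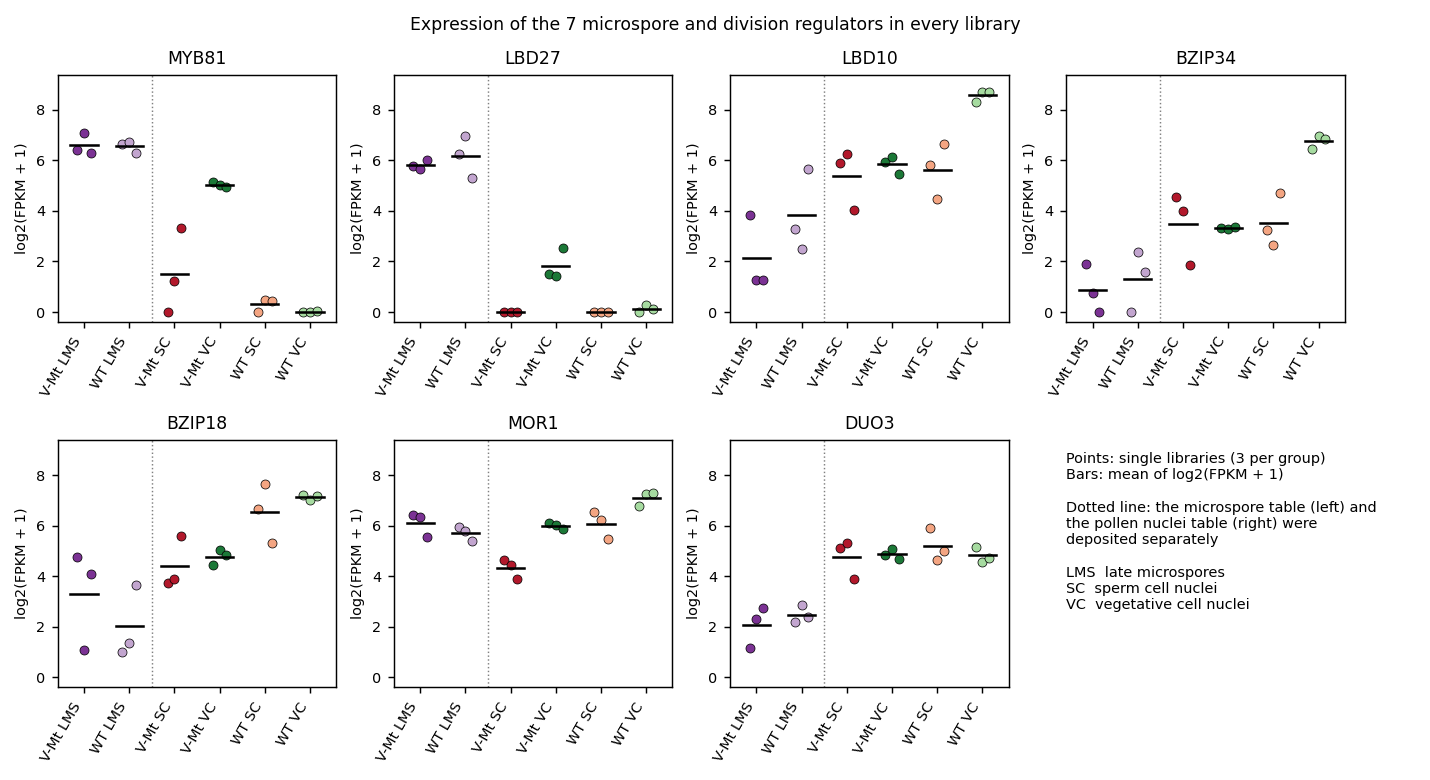
Level of each of the 7 genes in all 18 libraries as log2(FPKM + 1), with 1 point per library and a bar at the mean of the 3 libraries of a group. The dotted line parts the separately deposited microspore and pollen tables. MYB81 and LBD27 are high in microspores and stand above 0 in V-Mt VC, LBD10 and BZIP34 peak in WT VC, and DUO3 is level across pollen nuclei on the deposited scale.

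In WT pollen 3 of the 7 genes were called between sperm and vegetative nuclei, all lower in SC, where 40.4% of all genes were called (27.3% higher and 13.1% lower in WT SC). These were LBD10, BZIP34 and MOR1. Within the V-Mt line 3 were called as well, again all lower in SC, where 71.4% of all genes were called (13.4% higher and 58% lower in V-Mt SC). These were MYB81, LBD27 and MOR1, and 3 of 7 is no excess over that background. MYB81 and LBD27 passed the filter only with the V-Mt VC libraries, so neither adds to the 3. After quantile normalization the -1.82 of LBD27 became -0.62 (limma adjusted p = 0.137). Whether the sperm to vegetative difference of a gene differed between the lines is the same contrast as the interaction that follows. The comparisons share their vegetative or sperm libraries and are not independent of each other.

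The effect of the line in vegetative nuclei minus its effect in sperm nuclei was tested as an interaction. LBD10 and BZIP34 passed, where 67.7% of all genes did (60.5% higher and 7.18% lower in VC), with an all-gene median of 2.24. MYB81 and LBD27 passed too, at 3.83 (SE 0.92, limma adjusted p = 0.00386) and 1.69 (SE 0.34, limma adjusted p = 0.00122). They entered the test through V-Mt libraries, for LBD27 those of V-Mt VC alone, which fixed the sign of its value, so neither is counted as a result. It was -3.37 for BZIP34 (SE 0.96, limma adjusted p = 0.0098) and -2.48 for LBD10 (SE 0.88, limma adjusted p = 0.0283). For LBD10 and BZIP34 the V-Mt effect was thus more negative in vegetative than in sperm nuclei. For LBD27 the estimate turned to -0.28 after quantile normalization, and for MYB81 it was 2.47 there and no longer passed (adjusted p = 0.0712). LBD10 no longer passed when V-Mt SC replicate 1 or 2, WT SC replicate 2 or WT VC replicate 2 or 3 was left out (-2.41 to -1.89, adjusted p up to 0.067). For BZIP18, MOR1 and DUO3 the interaction was -0.21 (interval -2.09 to 1.67), 0.63 (-0.35 to 1.61) and 0.46 (-0.90 to 1.82) with adjusted p of 0.838, 0.23 and 0.523 in limma, so a difference between nuclei was not detected, nor were like effects shown. The estimates for MOR1 and DUO3 turned negative after median-ratio scaling (-0.97 and -1.10) and quantile normalization (-0.46 and -1.57), and for DUO3 the last passed (adjusted p = 0.0491).

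**Figure D2:**
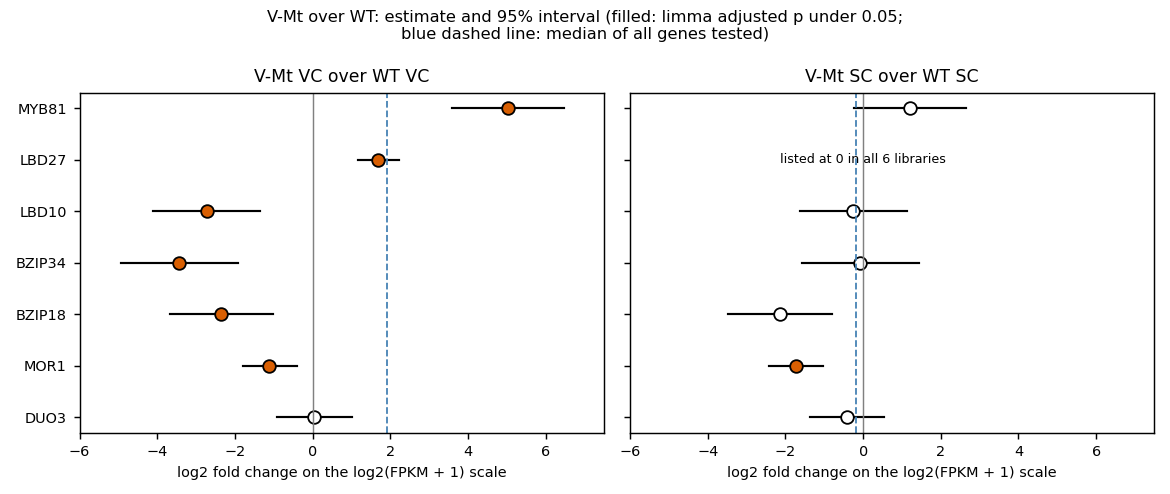
Log2 fold change of each of the 7 genes on the log2(FPKM + 1) scale, V-Mt VC over WT VC (left) and V-Mt SC over WT SC (right), with 95% intervals from limma. Filled points passed an adjusted p of 0.05, and the dashed line is the median of all genes tested (1.92 and -0.19). LBD10, BZIP34, BZIP18 and MOR1 lie left of 0 in vegetative nuclei, MOR1 alone is filled in sperm nuclei, and on other scalings LBD27 and DUO3 in VC and LBD10, BZIP34 and DUO3 in SC change sign.

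In microspores MYB81, LBD27 and MOR1 were the abundant members, and none of the 7 passed the test between the lines. Limma called 0 of the 18002 genes tested (0%), with 1195 at an unadjusted p under 0.05. MYB81 had 85.04, 133.13 and 78.11 FPKM in V-Mt LMS, against 99.88, 104.51 and 76.62 FPKM in WT LMS. LBD27 had 53.95, 49.48 and 64.28 FPKM in V-Mt LMS, against 76.12, 123.9 and 38.16 FPKM in WT LMS. Both factors were thus present in all 6 libraries, with overlap between the lines. MYB81 differed by 0.05 (SE 0.36, interval -0.77 to 0.87, limma adjusted p = 0.993) and LBD27 by -0.35 (SE 0.49, interval -1.46 to 0.75, limma adjusted p = 0.942). MOR1 had 86.09, 81.43 and 45.66 FPKM in V-Mt LMS, against 60.51, 54.7 and 41 FPKM in WT LMS, and the lines differed by 0.41 (SE 0.43, limma adjusted p = 0.918).

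LBD10, BZIP34, BZIP18 and DUO3 were low or uneven in microspores. LBD10 had 13.21, 1.44 and 1.38 FPKM in V-Mt LMS, against 8.77, 4.7 and 50.2 FPKM in WT LMS. BZIP34 had 2.74, 0.7 and 0 FPKM in V-Mt LMS, against 0, 4.18 and 1.97 FPKM in WT LMS. One WT library carried most of the LBD10 signal, and BZIP34 was at or below 4.18 FPKM in all 6, with 0 in 1 library of each line. DUO3 had 1.23, 3.91 and 5.76 FPKM in V-Mt LMS, against 3.53, 6.29 and 4.24 FPKM in WT LMS. BZIP18 had 26.4, 1.11 and 16 FPKM in V-Mt LMS, against 1.02, 1.58 and 11.63 FPKM in WT LMS. The summed level of the 5 vegetative markers was uneven in the same libraries, at 147 to 1677 FPKM in V-Mt LMS against 174 to 815 FPKM in WT LMS, and its part in these values was not tested. The estimates were -1.70 (SE 1.18) for LBD10, -0.42 (SE 0.94) for BZIP34, 1.3 (SE 1.25) for BZIP18 and -0.41 (SE 0.90) for DUO3, with limma adjusted p between 0.856 and 0.967. The microspore and pollen tables were deposited separately, so levels were not tested between them.

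The isoform tables show which transcript models the gene values rest on. For all 7 genes the gene value equals the sum of its isoforms within 0.03 FPKM in every library. Some of these models carry an AGI isoform name and others were added in the authors' assembly. LBD27 and BZIP34 rested on annotated models alone. For LBD10 the annotated model carried 92.8% of the gene value in V-Mt VC beside 85.1% in WT VC, and 90.6% in V-Mt SC beside 83.1% in WT SC. For MYB81 it carried 9.13% in V-Mt VC, that is 2.21, 4.18 and 2.4 FPKM against 0 in all WT VC libraries, and 5.46% in V-Mt LMS against 10.3% in WT LMS. Most MYB81 signal thus lay in added models at both stages.

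DUO3 stood out in its models. In pollen the annotated DUO3 model carried 1.3% of the gene value in V-Mt VC beside 1.42% in WT VC, and 1.26% in V-Mt SC beside 0.0873% in WT SC. In microspores it carried 100%, because no added DUO3 model is listed in that table. The annotated model averaged 0.37 FPKM in V-Mt VC and, among WT vegetative nuclei, 0.4 FPKM. In the microspore table it averaged 3.63 FPKM in V-Mt LMS, against 4.69 FPKM in WT LMS. The pollen values of DUO3 therefore rest on the added models, whose extent and coding content were not analysed here. The libraries do not mark the strand, so reads of an overlapping or antisense transcript cannot be told apart from these genes.

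BZIP18 and MOR1 were split between models. The annotated BZIP18 model carried 42.5% in V-Mt VC beside 40.3% in WT VC, but 7.92% in V-Mt SC beside 19.3% in WT SC. Counted on this model alone BZIP18 had 2.62, 1.01 and 2.15 FPKM in V-Mt SC, against 23.04, 26.04 and 16.47 FPKM in WT SC. These groups did not overlap, and BZIP18 then fell by 2.98 in V-Mt SC (limma adjusted p = 0.00852). With annotated models alone BZIP18 also passed between sperm and vegetative nuclei, at -2.12 in V-Mt (limma adjusted p = 0.000342) and -1.31 in WT (limma adjusted p = 0.0141). The annotated MOR1 model carried 34.4% in V-Mt VC beside 29.3% in WT VC, and 19.5% in V-Mt SC beside 16.6% in WT SC. On that model MOR1 no longer passed in V-Mt VC (-0.89, limma adjusted p = 0.0645) or V-Mt SC (-1.49, limma adjusted p = 0.0659). BZIP34 has a pair of annotated models, and AT2G42380.2 carried nearly all of it in pollen except in replicate 3 of V-Mt SC and replicate 2 of WT SC, where AT2G42380.1 alone was above 0. In microspores the table lists AT2G42380.1 alone.

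**Figure D3:**
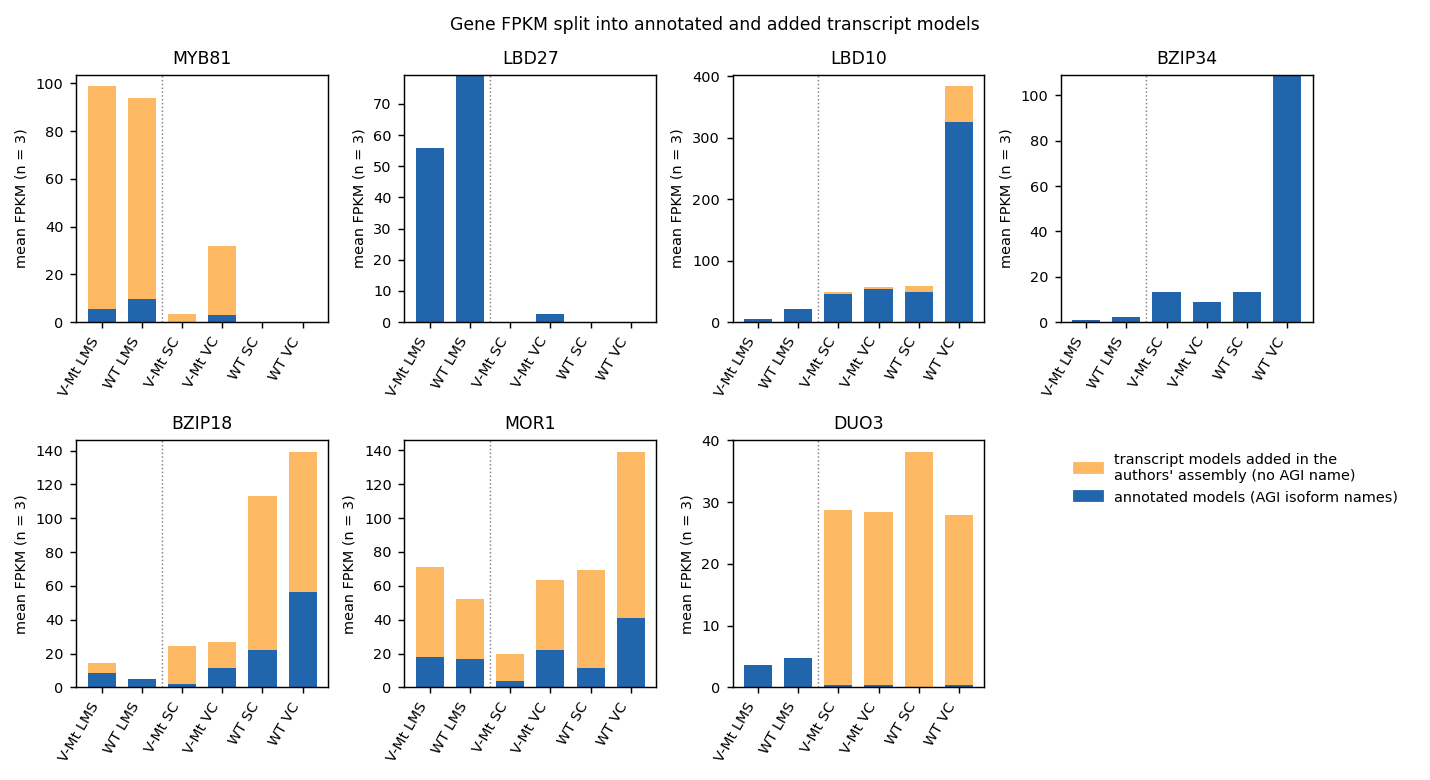
Mean FPKM of each gene (n = 3 libraries per group) split into annotated transcript models (blue) and models added in the authors' assembly (orange), with the microspore groups left of the dotted line and pollen nuclei right of it. DUO3 in pollen and MYB81 at both stages rest mainly on added models (annotated share of DUO3 1.3% in V-Mt VC beside 1.42% in WT VC), whereas LBD27 and BZIP34 rest on annotated models.

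The other genes of microspore division and cytokinesis moved in both directions in V-Mt VC, and most of those called were higher. Of 29 genes listed, 28 were in the pollen table and 25 were tested, and 11 of these were higher and 2 lower in V-Mt VC (limma adjusted p under 0.05), with a median of 1.51 beside 1.92 for all genes and the 62.5% and 10.8% called over all genes. After quantile normalization the split turned to 3 higher and 8 lower, with a median of -0.39, and under median-ratio scaling it was 9 and 2. GSL8, a callose synthase of the cell plate, averaged 763 ± 48.9 FPKM in V-Mt VC against 47.4 ± 8.32 FPKM in WT VC (log2 3.99, limma adjusted p = 4.72e-05). TUBG1, a gamma-tubulin, had 29.67, 26.23 and 20.71 FPKM in V-Mt VC, against 0, 0.04 and 0.25 FPKM in WT VC (log2 4.59, limma adjusted p = 0.000485). AUG6, a subunit of the augmin complex that seeds microtubules, averaged 31.2 ± 2.95 FPKM in V-Mt VC against 2.42 ± 0.293 FPKM in WT VC (log2 3.23, limma adjusted p = 2.26e-05). Quantile normalization left AUG6 at 0.64, which did not pass. All 3 genes were named by a rule that asks for no overlap between V-Mt VC and WT VC, so that separation is not a result. In sperm nuclei the lines overlapped for all 3. MPK4, a MAP kinase of the cytokinesis cascade, had 26.57, 18.84 and 21.96 FPKM in V-Mt VC, with 0 listed for every WT VC library. MPK4 reached 1 FPKM in no other pollen group and TUBG1 entered the test only with the V-Mt VC libraries, so that neither adds to the 11. The falls were MAP65-3, a microtubule bundler of the phragmoplast, at -2.75 (limma adjusted p = 0.00428), and KEU, a SEC1 protein of membrane fusion, at -1.29 (limma adjusted p = 0.000255), both chosen for mention after their values were seen. MOR1 fell beside them while most of the list did not.

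In sperm nuclei 1 of the 25 division genes was called, and it was lower in V-Mt SC. Over all genes 5.11% were called there, with 1.18% higher and 3.93% lower in V-Mt SC. KN, the cytokinesis syntaxin KNOLLE, had 0.5, 0.64 and 0 FPKM in V-Mt SC, against 7.02, 47.59 and 2.44 FPKM in WT SC (log2 -3.03, limma adjusted p = 0.0453). The call of KN was lost under 16 of 19 alternatives, with adjusted p up to 0.199. Between WT nuclei 12 of the 25 were higher and 1 lower in WT SC, where 27.3% and 13.1% of all genes were. KIN12B, which was among the higher genes, entered the test only with the WT SC libraries and does not add to the 12. The median was 1.43 beside 0.36 for all genes, and 11 to 12 division genes were higher under the other scalings. ANP3, a MAP kinase kinase kinase, averaged 177 ± 95.6 FPKM in WT SC and 0.973 ± 0.845 FPKM in WT VC (log2 6.47, limma adjusted p = 1.32e-06), but on annotated isoforms alone the difference was 0.63 and did not pass. The mitotic cyclin CYCB1;1 averaged 72.3 ± 62.9 FPKM in WT SC and 0.07 ± 0.0624 FPKM in WT VC (log2 5.48, limma adjusted p = 0.000154). CLASP, a microtubule-end protein, rose by 4.52 (limma adjusted p = 0.000259) and RBR1, the retinoblastoma-related protein, by 4.20 (limma adjusted p = 1.79e-07) in WT SC over WT VC. MOR1 moved the other way in that comparison. In V-Mt pollen 7 of the 25 were higher and 8 lower in SC than in VC, or 10 and 5 after quantile normalization, with a median of -0.13 beside -1.72 for all genes, of which 13.4% were higher and 58% lower. The named genes were GSL8 at -5.72, GSL10 at -4.93, MPK4 at -4.51 and ANP3 at 4.34. MPK4 reached 1 FPKM in V-Mt VC alone, so a call for it could only be a fall. TUBG1 entered the test only with the V-Mt VC libraries, and neither of these genes adds to the 8. On annotated isoforms alone ANP3 did not pass there either (0.58). The interaction passed for 17 division genes, 16 of them higher in VC, a share near the 67.7% of all genes. Among the 16 were MPK4, TUBG1 (5.36), GSL8 (5.35) and KN (4.60). MPK4 and TUBG1 entered the test only with the V-Mt VC libraries, so neither adds to the 16. After quantile normalization 2 division genes were higher and 5 lower in VC, and TUBG1 (2.79) and KN (2.06) no longer passed.

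Relatives and partners of the members also moved unevenly in V-Mt VC. Of 16 relatives, 13 were tested, and 7 were higher and 3 lower in V-Mt VC, with a median of 1.32, beside 62.5% higher and 10.8% lower over all genes. Of the 7, BZIP30, BZIP59, MYB33 and VIP1 entered the test only with the V-Mt VC libraries. After quantile normalization 2 were higher and 5 lower, and under median-ratio scaling 6 and 5. LBD22, an LBD factor of pollen and partner of LBD10, had 6.78, 5.34 and 7.08 FPKM in V-Mt VC, against 131.22, 149.96 and 154.37 FPKM in WT VC. It fell by 4.31 (SE 1.04, limma adjusted p = 0.00326), as LBD10 did, and it too was lower in WT SC than in WT VC (-3.35, limma adjusted p = 0.0246). That WT call was lost with a pseudocount of 0.1 and without WT SC replicate 2 or any 1 WT VC library, with adjusted p up to 0.0842. BZIP61, the closest relative of BZIP34, was lower in V-Mt VC as well (-1.83, limma adjusted p = 0.0238, mentioned after its value was seen) and in WT SC against WT VC (-2.92, limma adjusted p = 0.00403). The V-Mt VC call of BZIP61 was lost without any 1 of the 6 vegetative libraries and with a pseudocount of 0.1 (adjusted p up to 0.159). In contrast BZIP69, a factor of the family of VIP1, had 101.71, 132.46 and 114.67 FPKM in V-Mt VC, against 5.43, 0.92 and 1.5 FPKM in WT VC (log2 5.22, limma adjusted p = 6.61e-05). BZIP59 was higher in V-Mt VC by 4.70 and VIP1 by 4.10, and VIP1 no longer passed after quantile normalization (1.92). Both entered the test only with the V-Mt VC libraries, so a call could only be a rise and neither adds to the 7. Basic leucine zipper genes still went both ways, with BZIP69 higher and BZIP34 and BZIP18 lower. Of the 13 relatives 1 was called in sperm nuclei, where 5.11% of all genes were. This was LBD25, another partner of LBD10, with 0, 0.2 and 0 FPKM in V-Mt SC, against 4.53, 7.92 and 4.14 FPKM in WT SC (log2 -2.57, limma adjusted p = 0.0108, and 0.177 in a fit of the sperm libraries alone).

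The 3 tested GAMYB-like relatives with a miR159 site did not move as one, and they are given for that site and not by the size of their change. MYB65, MYB97 and MYB104 were at 1.67 FPKM or less in every pollen library and were not tested. MYB33 had 7.64, 9.96 and 6.97 FPKM in V-Mt VC, against 0.84, 0 and 0.09 FPKM in WT VC, an estimate of 2.85 (SE 0.24) that became 0.62 after quantile normalization. MYB33 reached 1 FPKM in V-Mt VC alone, so a call could only be a rise, and its test adds nothing to these values. MYB120, a pollen tube factor, fell by 2.22 in V-Mt VC (SE 0.63, limma adjusted p = 0.00831), though not with a pseudocount of 0.1 (adjusted p = 0.0812). MYB101 did not pass, but it did, as lower, under median-ratio scaling (-1.57, adjusted p = 0.00473) and in a fit of the vegetative libraries alone (-0.48, adjusted p = 0.0237). MYB33 and MYB81 were both near 0 in WT VC. Within the V-Mt line BZIP69 (-5.08) and LBD36 (-3.24) were lower in SC than in VC, and BZIP59 was at 0 in V-Mt SC. MYB33 was lower there by 3.17, but a call could again go 1 way only, here a fall, so its test adds nothing. Of the 13 relatives 2 were higher and 3 lower in WT SC than in WT VC, where 27.3% and 13.1% of all genes were. In V-Mt SC 0 were higher and 8 lower than in V-Mt VC, near the 58% of all genes that were lower. BZIP30, BZIP59, MYB33 and VIP1 entered that test only with the V-Mt VC libraries, and none of them adds to the 8. In WT SC, BZIP52 was lower (-1.97, limma adjusted p = 0.00261) and LBD25 higher (1.63, limma adjusted p = 0.0055), the last no longer called under median-ratio scaling (0.88) or quantile normalization. The interaction passed for 8, near the share of all genes, of which 7 were higher in VC. Among the 7 were BZIP59, BZIP69 (5.98), VIP1 (4.35) and LBD36 (4.14). BZIP30, BZIP59, MYB33 and VIP1 entered the test only with the V-Mt VC libraries, so none of them adds to the 7. After quantile normalization 2 relatives were higher and 4 lower in VC, and VIP1 (1.50) and LBD36 (0.95) no longer passed.

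**Figure D4:**
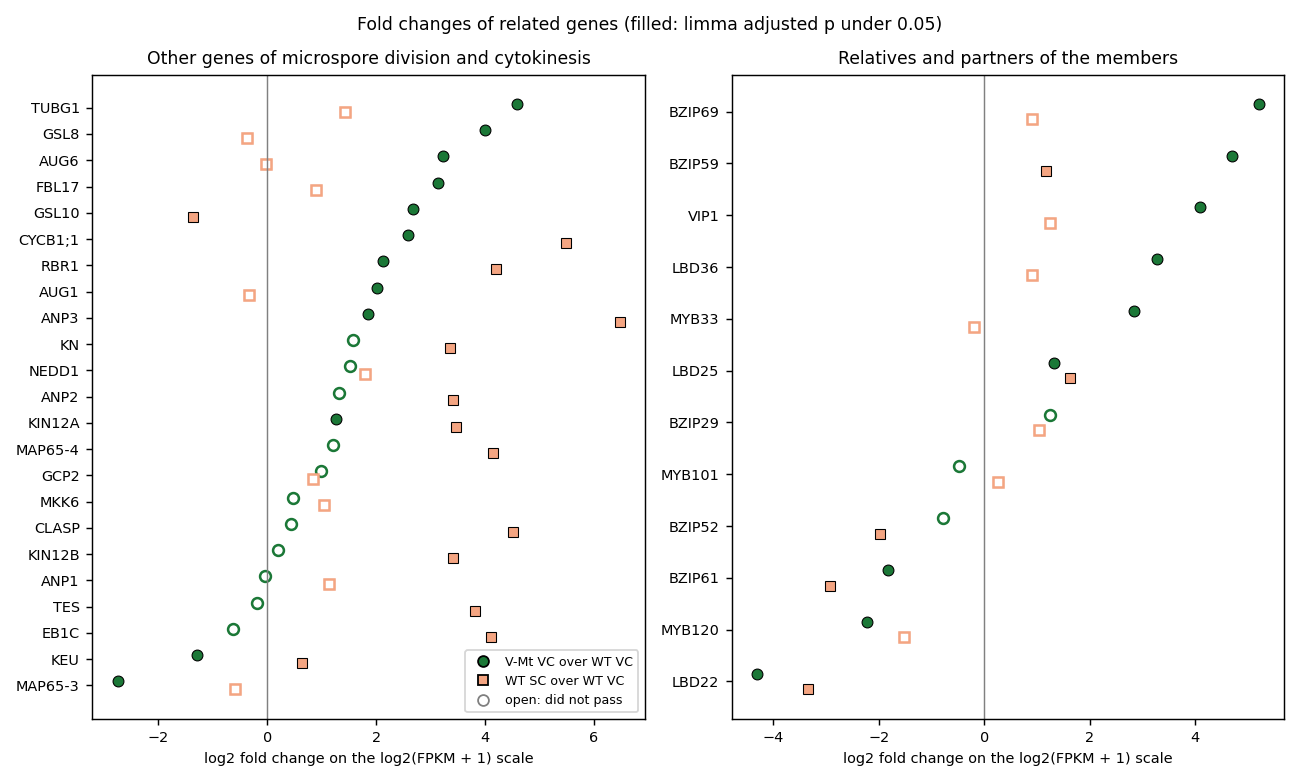
Log2 fold change on the log2(FPKM + 1) scale of 23 tested genes of microspore division (left) and 12 tested relatives of the members (right), V-Mt VC over WT VC (circles) and WT SC over WT VC (squares); filled symbols passed a limma adjusted p of 0.05. MPK4, TUBG2 and BZIP30 are left out because a group is listed at 0. Most circles lie right of 0 on the deposited scale (10 of the division genes drawn were called higher and 2 lower, while the list as a whole turned to 3 higher and 8 lower after quantile normalization), whereas LBD22, MYB120, BZIP61, MAP65-3 and KEU lie left of it.

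In microspores 0 of 27 division genes and 0 of 11 relatives tested passed between the lines in limma. Within the division list the lowest p values belonged to CDKA;1, with 29.5 ± 26.6 FPKM in V-Mt LMS against 5.82 ± 3.75 FPKM in WT LMS (limma adjusted p = 0.804), and to GCP2 (AT5G17410), with 6.23 ± 6.92 FPKM in V-Mt LMS against 18.4 ± 3.69 FPKM in WT LMS (limma adjusted p = 0.811). Among relatives BZIP52 had 19.75, 12.44 and 18.11 FPKM in V-Mt LMS, against 0, 0 and 0.8 FPKM in WT LMS. Its groups did not overlap, but across all genes the 3.84 between them (SE 0.86) missed the threshold (limma adjusted p = 0.615). BZIP30 was next, with 10.1 ± 11.3 FPKM in V-Mt LMS against 1.36 ± 1.78 FPKM in WT LMS (limma adjusted p = 0.814).

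For each member the genes of most similar pattern over the 12 pollen libraries were sought among 17094 genes, by Pearson r of log2(FPKM + 1). These are descriptions over libraries that fall into 4 groups, and the libraries of a group share their cell type and line. MYB81 was followed most closely by MS2 (0.993), a fatty acyl reductase gene of the tapetum that is among the tapetum markers above, and by ABA1 (0.992). LBD27 was closest to AT4G12580 (0.995) and NAC3 (0.994), both with a group mean of 0 in the other 3 pollen groups, to 2 decimals. LBD10 was closest to TPR13 (0.991) and AT1G16760 (0.986), and BZIP34 to MRB1 (0.995) and AT3G07890 (0.993), all 4 with their highest group mean in WT VC. BZIP18 was closest to FAD2 (0.965), an oleate desaturase, and AT1G79660 (0.963), and MOR1 to AT3G12620 and XF1 (0.97 each). DUO3 had no gene above 0.876, the value for AT3G50550, with SUS6 next at 0.859.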

How the data were processed

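Per the labels, RNA of 12 libraries of sorted pollen nuclei and 6 of late microspores was amplified with SMART-Seq HT and sequenced. The authors deposited FPKM values per gene and per isoform, in separate tables for pollen and microspores. Per the submitters' processing notes, HISAT2 2.1.0, RSEM 1.3.1 and Bowtie2 (version 2.3.5 for pollen) were run on TAIR10, with StringTie 1.3.5 named for pollen only. Settings and the sharing of multiply mapped reads are not given in the sources that were used, and either can move the FPKM of genes with added or overlapping models. Of the microspore gene table, 2 stray lines of text were left out.

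A gene was tested if 3 or more libraries of its table reached 1 FPKM. The tool was limma 3.58.1 with a trend, under R 4.3.3, on log2(FPKM + 1), which understates the change of low genes. Tests were 2-sided, with Benjamini-Hochberg adjustment over all genes tested at 0.05. The 12 pollen libraries shared 1 fit, and the 6 microspore libraries another. The fit was tested on simulated data with 200 changed genes. Groups and replicate numbers came from the sample titles. Alternatives were a pseudocount of 0.1, no filter, median-ratio scaling, quantile normalization, a replicate block, only the groups compared, and each library left out. Counting annotated isoforms only was chosen after seeing the data.

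The members and lists were chosen with earlier results of these data known. All 7 members are named, with REF6. From each list, up to 4 called genes per comparison with the largest fold change and no overlap between groups are named, or the 2 of lowest p where none was called. For each member the 2 genes of highest Pearson r are named. TIO, a division gene of the list, was not analysed here. Sequences came from the RefSeq TAIR10.1 genome and annotation. Depth estimates used the spacing of low FPKM values in transcripts of 1200 to 2500 bases and assumed fragments of 250 bases.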

Additional observations from a re-analysis of the deposited data

Results flagged for a closer look

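The effect of the V-Mt line differed between vegetative and sperm nuclei for LBD10 and BZIP34, by a limma test of the difference itself. MYB81 and LBD27 passed the same test, but they entered it only through V-Mt libraries, so neither is support. MYB81 differed by 3.83 on the log2(FPKM + 1) scale, with a V-Mt effect of 5.04 in VC and 1.21 in SC, and at 2.47 after quantile normalization it no longer passed (adjusted p = 0.0712). LBD27 differed by 1.69, all of it from VC, since every sperm library is at 0, and turned to -0.28 after quantile normalization. LBD10 differed by -2.48, with -2.73 in VC and -0.25 in SC, and BZIP34 by -3.37, with -3.43 in VC and -0.07 in SC. Over all genes 67.7% passed the same test, so its passing is not particular to these genes, while 7.18% of genes differed downwards as LBD10 and BZIP34 did. Groups of 3 libraries were not screened for single outlying libraries.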

How the results depend on the processing

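Of the 17 differences called between groups, 295 of 310 alternative values kept direction and call, 13 no longer passed and 2 reversed, and of the 25 not called, 355 of 405 kept both. Of the 39 called differences of list genes, 670 of 711 values kept both and 41 no longer passed. In microspores 2 genes in all were called without V-Mt LMS replicate 2. The number of members called in V-Mt SC against WT SC was 1, and 0 in a fit of the groups compared alone, where 2 genes in all were called in place of 1008. Leaving out 1 library gave 1 to 2 members there (2 without V-Mt SC replicate 3 or WT SC replicate 3), 5 to 6 in V-Mt VC against WT VC, 2 to 3 in WT SC against WT VC, 2 to 3 in V-Mt SC against V-Mt VC, 3 to 4 for the interaction and 0 in microspores. Without LBD27 in the test the vegetative count is 5. Over all genes the sperm count ranged from 384 without WT VC replicate 3 to 3258 without WT SC replicate 3, and it was 612 with no filter and 458 on annotated isoforms; these isoforms gave 9389 for V-Mt SC against V-Mt VC (14090 on genes) and 8726 for the interaction (13351 on genes).

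After quantile normalization LBD27 turned to -0.23 in V-Mt VC and -0.28 in the interaction. Under median-ratio scaling and quantile normalization DUO3 turned to -1.02 and -1.62 in V-Mt VC, -0.75 and -0.46 in WT SC against WT VC, 0.35 and 1.11 in V-Mt SC against V-Mt VC (adjusted p = 0.0428 for the last in limma) and -1.10 and -1.57 in the interaction, and MOR1 to -0.97 and -0.46 in the interaction. LBD10 turned to 0.25 and 0.10 between sperm groups and to 0.01 and 0.44 in V-Mt SC against V-Mt VC, BZIP34 to 0.37 and 0.54 in V-Mt SC, BZIP18 to 0.08 and 0.91 in V-Mt SC against V-Mt VC, and DUO3 to 0.09 in V-Mt SC under median-ratio scaling. On annotated isoforms BZIP18 turned to 0.81 in the interaction, MYB81 and BZIP18 to -0.42 each in V-Mt LMS, and MYB101 to 0.39 in V-Mt VC; DUO3 fell below the filter in pollen. The cause of these changes was not tested.

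With 1 library left out, the differences that changed sign in some libraries were all among those not called. In V-Mt VC against WT VC DUO3 ranged from -0.08 to 0.22. In V-Mt SC against WT SC the ranges were -0.84 to 0.43 for LBD10, -0.61 to 0.74 for BZIP34 and -0.69 to 0.03 for DUO3. In WT SC against WT VC they were -1.15 to 0.02 for BZIP18 and -0.01 to 0.63 for DUO3. In V-Mt SC against V-Mt VC they were -0.88 to 0.23 for LBD10, -0.40 to 0.94 for BZIP34 and -0.37 to 0.34 for DUO3, and in the interaction -0.77 to 0.40 for BZIP18. In V-Mt LMS against WT LMS they were -0.19 to 0.20 for MYB81, -0.79 to 0.04 for LBD27, -1.08 to 0.02 for BZIP34 and -0.75 to 0.05 for DUO3. Libraries with the same replicate number showed no clear shared deviation (r of -0.2 to 0.15 over 18 pairs in pollen and -0.13 to 0.03 over 3 in microspores). A pairing by number was thus not detected, nor is it excluded, since the pollen pairs include those across lines. With the replicate number as a block the members called were 6 in V-Mt VC against WT VC, 1 in V-Mt SC against WT SC, 3 in WT SC against WT VC, 3 in V-Mt SC against V-Mt VC, 4 for the interaction and 0 in microspores, and over all genes the sperm count was 608. Low values are limited by depth, most of all in microspores, where 1 fragment on 1 kb is worth 0.306 to 0.505 FPKM.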
